A study of Mus musculus with 6 samples.

Results

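Retinoid metabolism was followed through 9 genes, Rdh9, Rdh7, Rdh16, Dhrs3, Dhrs9, Aldh1a1, Aldh1a3, Rbp2 and Rarb, out of 19938 genes with a probe set of their own on the array. The list was drawn up with results of this same contrast in view, selected on the difference between antibiotics and re-fed arrays (that of Rdh9 in its name), so the members' differences are described here without a test. The data are 6 Affymetrix arrays, each of a separate sample, of colonic epithelial cells sorted as EpCAM+CD45- (EpCAM is a surface protein of epithelia and CD45 the leukocyte antigen encoded by Ptprc). All cells came from wild-type male BALB/c mice, 6 weeks old, that were fasted for 36 h and then had food for 24 h. In the re-fed group (3 samples) no treatment was given, and in the antibiotics group (3 samples) the mice received antibiotics during re-feeding, with agents that the labels do not name. The question is what antibiotics change in the colonic epithelium after a fast. There is no fasted or continuously fed group, and how many mice make up a sample is not stated in the labels.

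Vitamin A reaches epithelial cells as retinol or as a carotenoid, and binding proteins and esterification keep it in store. Retinol dehydrogenases of the short-chain dehydrogenase family oxidise retinol to retinaldehyde, reductases such as Dhrs3 and several aldo-keto reductases run this step backwards, and retinaldehyde dehydrogenases (Aldh1a) then make retinoic acid irreversibly. Retinoic acid binds receptors of the RAR type, which pair with RXR on DNA, and enzymes of the Cyp26 group remove it. In the gut, retinoic acid made by epithelial and dendritic cells is known for shaping mucosal lymphocytes, and in mouse intestinal epithelium Rdh7 has been described as lowered by commensal bacteria.

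The mouse gene Rdh9 lies next to a close relative, Rdh16, on chromosome 10, and the sequence before each start is shown because Rdh9 separated the groups and Rdh16 did not. The sequences are from RefSeq (GRCm38.p6, plus strand, chr10:127776155-127776404 for Rdh9 and chr10:127800903-127801089 for Rdh16) and end just before the first annotated start of each gene. Capitals mark identical runs of at least 8 bases in their alignment.
Rdh9: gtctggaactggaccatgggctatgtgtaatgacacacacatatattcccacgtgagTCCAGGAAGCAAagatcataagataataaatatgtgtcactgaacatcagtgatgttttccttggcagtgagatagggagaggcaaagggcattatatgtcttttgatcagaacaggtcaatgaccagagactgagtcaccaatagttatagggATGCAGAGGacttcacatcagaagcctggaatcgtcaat
Rdh16: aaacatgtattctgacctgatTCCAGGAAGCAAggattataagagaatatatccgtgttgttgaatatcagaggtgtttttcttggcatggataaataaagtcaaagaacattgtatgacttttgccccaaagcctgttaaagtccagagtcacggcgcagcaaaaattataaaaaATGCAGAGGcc
In the local alignment of these stretches 135 of 186 positions were identical (72.6%), with a longest identical run of 12 bases. The same bases of Rdh9 were also aligned with promoter windows of 300 bases around a start, so these values are not like the one above. With such a window of Rdh7, 121 of 152 positions were identical (79.6%), and with that of Rdh16, 151 of 210 (71.9%). The windows of Rdh1, Rdh16f2, Sdr9c7 and Hsd17b6 aligned over only 11 to 31 positions.

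Levels are log2 expression after quantile normalisation of the deposited values, and a difference is the antibiotics mean minus the re-fed mean on that scale. A floor for dim signal was set at 5.81 (the 40th percentile over probe sets that have a gene), and 12071 genes lay above it and were tested. Where values of all arrays are listed, they run from replicate 1 to replicate 3 of a group. The deposited values of 4 arrays, replicates 2 and 3 of the re-fed and replicates 1 and 2 of the antibiotics group, carry the mark of a shared normalisation run, as read from identical values and not from a label, and differences within these 4 arrays (the common run) are given beside those over 6. Of the markers of the sort, Epcam stood between 12.08 and 12.29 on all arrays and Ptprc lay below the floor, between 5.30 and 5.54. Of 17 leukocyte genes with a probe set 14 lay below the floor, and the mean level of that list was 5.20 to 5.21 without and 5.19 to 5.24 with antibiotics. Defining colonocyte genes were bright, with Car1 between 13.35 and 13.61 and Slc26a3 between 12.86 and 12.98, and the stem cell marker Lgr5 lay below the floor in its mean.

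Rdh9, a cis-retinol and androgen dehydrogenase that also acts on hydroxysteroids, was the member whose groups stood apart. Its level was 9.94, 10.09 and 10.15 on the re-fed arrays and 9.34, 9.37 and 9.39 on the antibiotics arrays. All antibiotics samples lay below all re-fed samples, with a gap of 0.55 between the nearest values. The means were 10.06 ± 0.11 and 9.37 ± 0.025 (SD, n = 3 per group), a difference of -0.69 (SE 0.10) or a 1.62-fold lower level with antibiotics. Within the common run the difference was -0.77, and with any 1 array left out it lay between -0.75 and -0.65. In bulk samples such as these, fewer cells that carry a transcript and less of it per cell cannot be told apart.

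Rdh9 was 1 of 7 members above the floor, and the other 6 overlapped between the groups. Groups did not overlap in 19.6% of all genes tested (10.7% lower and 8.88% higher with antibiotics), and no reading is drawn from the share among the members. No p-value is given for a member. The median difference over the 7 members was -0.067, and 0.0033 over all genes tested.

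Genes of mature colonocytes were read beside Rdh9. Of 18 absorptive colonocyte genes, 7 lay lower (Car2, Aqp8, Krt20, Slc9a3, Aqp4, Emp1 and Slc20a1) and 1 higher (Guca2b) with no overlap between the groups, 0 passed over all genes (8 had an unadjusted p under 0.05), and their median difference was -0.12. Of all genes tested, 10.7% lay lower and 8.88% higher with no overlap. The colonocyte genes' mean level was 12.31 to 12.48 in the re-fed samples and 12.14 to 12.30 with antibiotics. Lower values were not particular to this list. Of 8 pan-epithelial genes, 3 (Krt8, Krt18 and Krt19) lay lower and 0 higher with no overlap, and 0 passed over all genes. Their median difference was -0.053, with -0.59 for Krt18. The mean level of that list was 12.134 to 12.214 in the re-fed samples and 11.997 to 12.13 with antibiotics. Of 9 crypt-base genes tested, 4 (Smoc2, Myb, Msi1 and Ephb3) lay higher with no overlap, 0 passed over all genes (6 had an unadjusted p under 0.05), and the median difference was 0.33. In the same list Sox9 (-0.31) and Axin2 (-0.070) lay lower, with overlapping groups. The part of cell composition in the difference of Rdh9 was not tested.

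**Figure D1:**
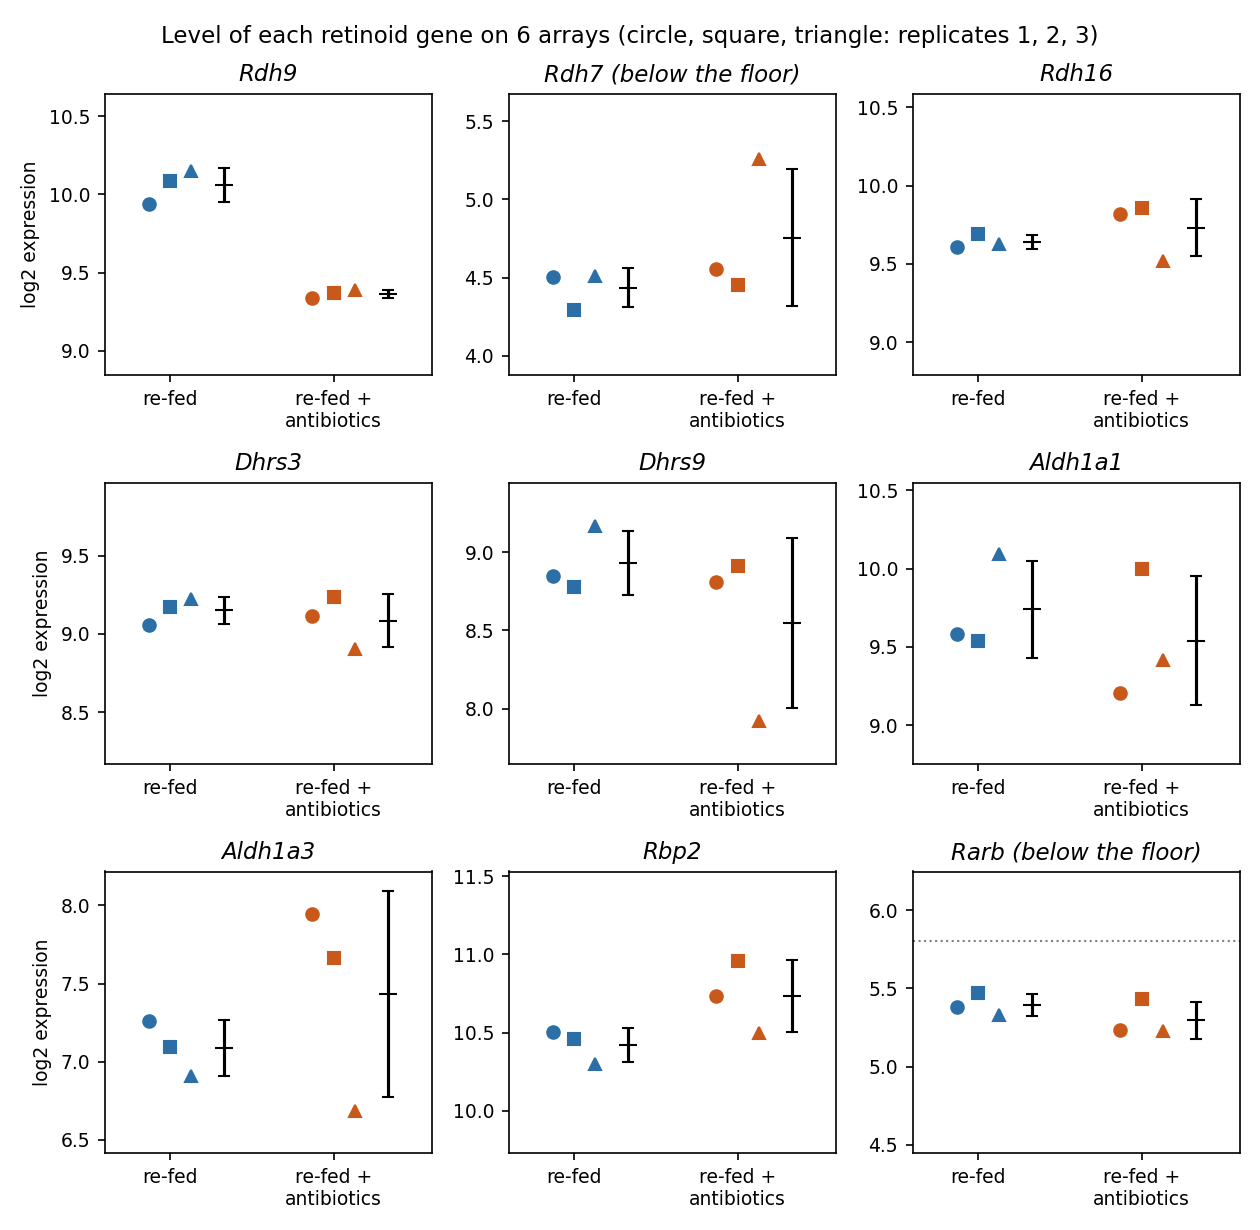
Log2 expression of each of the 9 genes on the 6 arrays, with every panel spanning the same number of log2 units. Circles, squares and triangles are replicates 1, 2 and 3, bars are the mean ± SD of 3 arrays, and the dotted line is the floor for dim signal where it falls in the panel. The Rdh9 values with antibiotics (9.34 to 9.39) all lie below those without (9.94 to 10.15), and the groups of the other 8 genes overlap.

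The groups of Rdh16, Rdh7, Dhrs9 and Dhrs3, the listed genes of the same family as Rdh9, overlapped. Rdh16, the neighbouring retinol and androgen dehydrogenase, stood at 9.61, 9.69 and 9.63 on the re-fed arrays and at 9.82, 9.86 and 9.52 on the antibiotics arrays. With antibiotics 2 samples were above and 1 was below all re-fed samples. The difference was 0.09 (SE 0.12), 0.18 within the common run, and it was below 0 with the deposited scaling (-0.088) and with median centring (-0.050).

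Rdh7, which oxidises retinol and hydroxysteroids in mouse, was dim throughout. It stood at 4.50, 4.29 and 4.51 without antibiotics and at 4.55, 4.46 and 5.26 with them, all below the floor. Antibiotics replicate 3 was the highest array, and the difference of 0.32 over 6 arrays was 0.068 without it.

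Dhrs9, a retinol dehydrogenase of epithelia, stood at 8.85, 8.78 and 9.17 on the re-fed arrays and at 8.81, 8.91 and 7.92 on the antibiotics arrays. The first 2 antibiotics samples lay within the re-fed range and the last was the lowest of the 6. The difference was -0.39 (SE 0.24) over 6 arrays, -0.12 in the common run and -0.074 without antibiotics replicate 3.

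Dhrs3, which reduces retinaldehyde to retinol and is induced by retinoic acid in many cells, stood at 9.06, 9.17 and 9.22 without antibiotics and at 9.12, 9.23 and 8.90 with them. The groups overlapped, with a difference of -0.067 (SE 0.12) that was 0.024 without antibiotics replicate 3 and -0.26 with the deposited scaling.

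Both members that oxidise retinaldehyde to retinoic acid varied widely among the antibiotics samples. Aldh1a1, a cytosolic retinaldehyde dehydrogenase, stood at 9.58, 9.54 and 10.10 on the re-fed arrays and at 9.20, 10.001 and 9.41 on the antibiotics arrays. Re-fed replicate 3 and antibiotics replicate 2 were high and the other 4 arrays lay lower. The difference was -0.20 (SE 0.22), and it came to -0.022 without re-fed replicate 3.

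Aldh1a3, its paralog with the same reaction, stood at 7.26, 7.10 and 6.91 on the re-fed arrays and at 7.94, 7.66 and 6.69 on the antibiotics arrays. The first 2 antibiotics samples lay above all re-fed samples and the last below all of them. The difference was 0.34 (SE 0.27) over 6 arrays and 0.80 within the common run, a 1.74-fold higher level there. It was 0.72 without antibiotics replicate 3 and 0.088 without antibiotics replicate 1.

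Rbp2, the cellular retinol-binding protein of absorptive enterocytes that passes retinol to esterification, stood at 10.51, 10.46 and 10.30 without antibiotics and at 10.73, 10.96 and 10.50 with them. The lowest antibiotics value fell just below the highest re-fed value. The means were 10.42 ± 0.11 and 10.73 ± 0.23 (SD, n = 3 per group), with a difference of 0.31 (SE 0.13), 0.47 in the common run and 0.12 with the deposited scaling. Rbp2 is best known from the small intestine, and 12 genes of small-intestinal enterocytes were read beside it. Of the 7 above the floor none separated the groups and their median difference was 0.023, with 4 above 0, as Rbp2 was, and 3 below. The widest below 0 were Fabp2, an intracellular fatty acid-binding protein (-0.79, SE 0.38, adjusted p = 0.423), and Apoa1, an apolipoprotein (-0.34, SE 0.29, adjusted p = 0.653). The widest above 0 were Ada (0.16, SE 0.12, adjusted p = 0.610) and Slc5a1 (0.15, SE 0.11, adjusted p = 0.584). Apoa1 lay above 0 without antibiotics replicate 3 (0.070). The list's mean level was 6.55 to 6.76 without and 6.42 to 6.70 with antibiotics. Their part in the Rbp2 values was not tested.

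Rarb, a retinoic acid receptor whose own transcript is induced by retinoic acid in many cell types, stood at 5.38, 5.47 and 5.33 without antibiotics and at 5.23, 5.43 and 5.23 with them. All 6 values were below the floor and the groups overlapped.

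Across the 9 genes antibiotics replicate 3 was an extreme array in 6. It was the lowest of the 6 arrays for Rdh16, Dhrs3, Dhrs9, Aldh1a3 and Rarb, and the highest for Rdh7. The SD was larger with antibiotics than without in 8 of the 9 genes, Rdh9 being the exception. SDs ran from 0.044 to 0.31 without antibiotics and from 0.025 to 0.66 with them. The shares of all genes with such an order of SDs or such an extreme array were not counted, so no reading about the members is drawn. Over all genes tested, each other array correlated least with antibiotics replicate 3 (r = 0.9729 to 0.9808). Antibiotics replicate 3 also had the lowest median as deposited (5.63, against up to 6.17), and lies outside the common run. It held 10829 distinct deposited values, against 34568 to 34596 on each other array. The part of its processing in these values was not tested. Within the common run the groups of 4 members did not overlap, Rdh9 lower and Rdh16, Aldh1a3 and Rbp2 higher, where 50.6% of all genes tested were so placed.

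**Figure D2:**
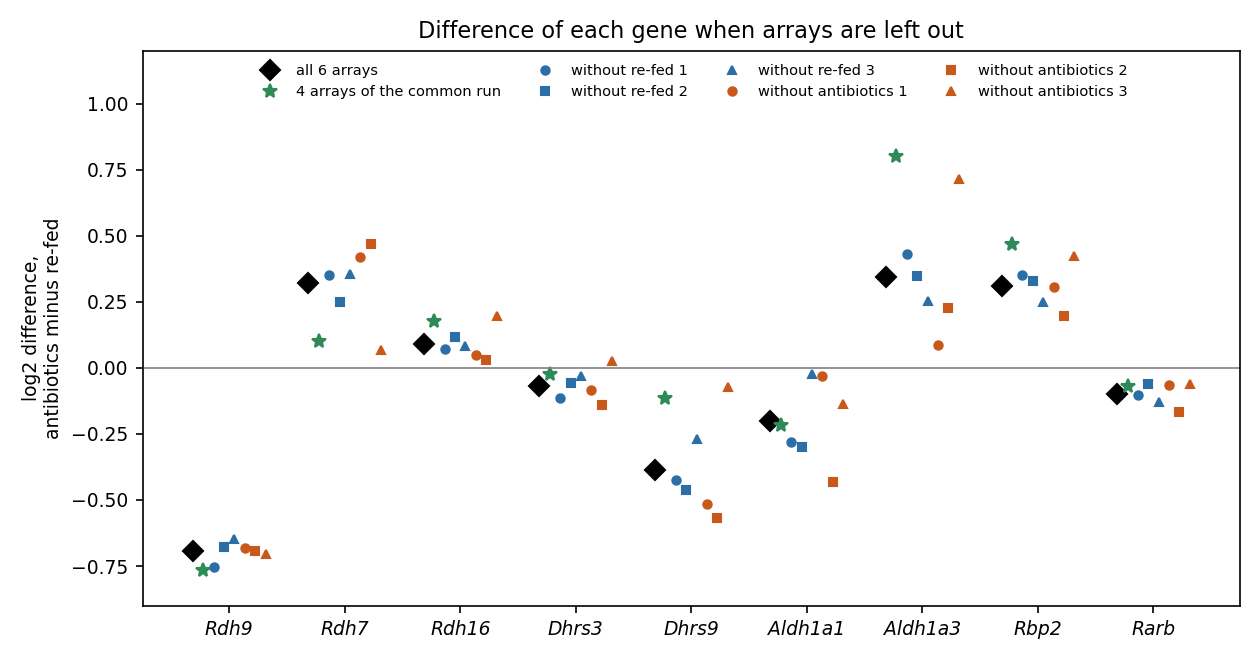
Log2 difference, antibiotics minus re-fed, of each gene over all 6 arrays (diamonds), within the 4 arrays of the common run (stars) and with each array left out (circles, squares and triangles for replicates 1, 2 and 3, blue for re-fed and orange for antibiotics). Rdh9 stays between -0.77 and -0.65, while Aldh1a3 ranges from 0.088 to 0.80 and Dhrs9 from -0.57 to -0.074.

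Rdh9 belongs to a run of 9 related dehydrogenase genes on chromosome 10, in the order Rdh1, Rdh9, Rdh16, Rdh18-ps, Rdh19, Rdh16f2, Rdh7, Sdr9c7 and Hsd17b6 in the RefSeq annotation of GRCm38.p6, with Rdh18-ps annotated as a transcribed pseudogene. Of the 6 neighbours that are no members, 4 were above the floor and none passed over all genes in limma's test. Rdh1, a retinol dehydrogenase on the other side of Rdh9, stood at 6.35, 6.57 and 6.59 without and at 6.29, 6.23 and 6.07 with antibiotics. Its groups did not overlap, with a difference of -0.31 (SE 0.11, adjusted p = 0.318).

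Rdh16f2 differed by -0.28 (SE 0.14, adjusted p = 0.442), Rdh18-ps by -0.21 (SE 0.14, adjusted p = 0.579) and Rdh19 by -0.014 (SE 0.17, adjusted p = 0.984), and the groups of all 3 overlapped. Within the common run these differences were -0.14, -0.0036 and 0.29. Sdr9c7 and Hsd17b6 lay below the floor. The genes are close relatives, and cross-hybridisation among them was not examined.

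**Figure D3:**
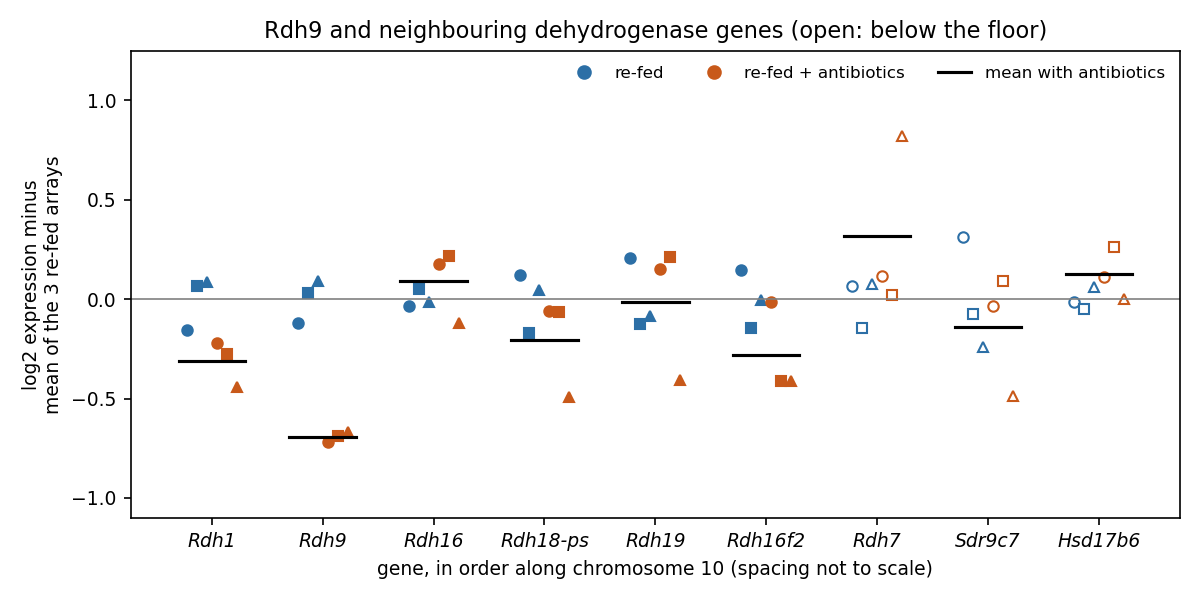
Level of each dehydrogenase gene of the chromosome 10 run on each array minus the mean of its 3 re-fed arrays (log2), in genomic order with spacing not to scale. Bars are the antibiotics means, symbols are replicates 1 (circle), 2 (square) and 3 (triangle), and open symbols are genes below the floor. Rdh9 has a mean of -0.69 with its antibiotics arrays close together, Rdh1 has -0.31, and the antibiotics and re-fed arrays of the others overlap.

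Outside the 9 members, 95 genes of the retinoid pathway were listed from general knowledge, with earlier results of these data known. Of these, 87 had a probe set of their own and 58 were above the floor. In limma's test over all genes 0 were higher and 2 were lower with antibiotics, and 56 did not pass. Of all genes tested, 0.058% passed an adjusted p under 0.05 (0.0497% lower and 0.00828% higher). No reading is drawn from the share of the list that passed. The median difference of the 58 genes was 0.019, against 0.0033 over all genes tested, and 32 lay above 0 and 26 below. Groups did not overlap in 3 genes higher with antibiotics (Rdh10, Dhrs4 and Cdx1). They did not overlap either in 7 lower ones (Rdh1, Akr1b8, Akr1b10, Aldh1a7, Ppard, Gprc5a and Il18). Of all genes tested, 8.88% lay higher and 10.7% lower with no overlap, and no reading is drawn from these counts.

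The 2 genes that fell are Akr1b8 and Akr1b10, aldo-keto reductases of a family that reduces retinaldehyde among many other aldehydes, as shown chiefly for the human enzymes. Akr1b8 had levels of 9.45, 9.46 and 9.74 on re-fed and of 8.03, 8.21 and 8.35 on antibiotics arrays (-1.36, SE 0.13, adjusted p = 0.00875). Akr1b10 had levels of 7.97, 7.72 and 8.07 on re-fed and of 6.86, 6.90 and 6.86 on antibiotics arrays (-1.05, SE 0.12, adjusted p = 0.0243). Neither gene's groups overlapped. The call of Akr1b8 was lost without antibiotics replicate 1 (-1.27, adjusted p = 0.067), and that of Akr1b10 when replicate 1 of the re-fed group (-1.02, adjusted p = 0.0524) or any antibiotics replicate was left out (-1.06 to -1.04, at adjusted p = 0.0626 to 0.164), when dim probe sets were kept in the test (adjusted p = 0.0637) and with the replicate number as a block (adjusted p = 0.0539). Within the common run both passed (-1.48, adjusted p = 0.0156 for Akr1b8 and -1.01, adjusted p = 0.0361 for Akr1b10), where 0.447% of all genes did. Akr1b8 and Akr1b10 are close paralogs, and cross-hybridisation between them was not examined either.

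Of the 16 genes above the floor among the oxidoreductases of retinol and retinaldehyde, the other 14 did not pass. Dhrs4, which reduces retinaldehyde and other carbonyls, had means of 7.80 ± 0.099 on re-fed and 8.13 ± 0.067 on antibiotics arrays (SD, n = 3 per group; 0.32, SE 0.10, adjusted p = 0.266). Rdh10, the retinol dehydrogenase required for retinoic acid synthesis in the mouse embryo and named after its values were seen, stood at 9.10, 9.03 and 9.12 without and at 9.48, 9.63 and 9.24 with antibiotics. Its groups did not overlap, with the antibiotics samples higher by 0.37 (SE 0.12, adjusted p = 0.275). Of the 5 genes listed beside the members Aldh1a1 and Aldh1a3 among aldehyde dehydrogenases and oxidases, 1 lay above the floor. This was Aldh1a7, a close relative of Aldh1a1, which differed by -0.35 (SE 0.12, adjusted p = 0.29). Aldh1a2, the retinaldehyde dehydrogenase of gut dendritic cells and of stroma, was below the floor.

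Among 12 genes above the floor for uptake, binding and storage 0 passed. Ttr, transthyretin, a carrier of thyroxine and of the retinol-binding protein of plasma, differed by 0.52 (SE 0.19, adjusted p = 0.308). Isx, a homeobox repressor that retinoic acid induces in mouse intestine and that holds down Bco1 and Scarb1, stood at 9.43, 10.26 and 10.61 without and at 9.38, 9.93 and 8.78 with antibiotics. The groups overlapped, and the difference of -0.74 (SE 0.33, adjusted p = 0.397) was -0.45 without antibiotics replicate 3. Its targets in other studies, the carotenoid oxygenase Bco1 and the scavenger receptor Scarb1, differed by 0.023 (SE 0.11, adjusted p = 0.951) and 0.045 (SE 0.13, adjusted p = 0.916), and each fell below 0 with 1 array left out (as low as -0.049 and -0.089). Bco2, the other carotenoid oxygenase, differed by -0.20 (SE 0.12, adjusted p = 0.528).

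Genes that clear retinoic acid gave 0 calls among the 4 above the floor. Cyp26c1 differed by 0.12 (SE 0.12, adjusted p = 0.741), Cyp26b1 by 0.091 (SE 0.13, adjusted p = 0.815) and Cyp3a13, a P450 of the gut, by 0.034 (SE 0.17, adjusted p = 0.956). With 1 array left out the difference of Cyp26c1 ranged from 0.030 (without re-fed replicate 2) to 0.20 (without re-fed replicate 1) and that of Cyp26b1 from 0.022 to 0.22 (without antibiotics replicates 1 and 3). Cyp3a13 changed sign, to -0.062 without re-fed replicate 2, -0.13 without antibiotics replicate 2 and -0.15 with the deposited scaling. Cyp26a1, the hydroxylase most widely used as a readout of retinoic acid, lay below the floor on every array, between 4.21 and 4.95.

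Of 14 receptor and coregulator genes above the floor 0 passed, and the median difference was 0.0061. The coactivator Ncoa3 differed by -0.16 (SE 0.11, adjusted p = 0.563), the corepressor Nrip1 by 0.13 (SE 0.11, adjusted p = 0.638) and Ppard, a fatty acid receptor that can also bind retinoic acid, by -0.12 (SE 0.096, adjusted p = 0.645). Nrip1 lay below 0 under the deposited scaling (-0.063) and median centring (-0.025).

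Of 11 genes above the floor that respond to retinoic acid in some cells 0 passed, with a median difference of 0.027. Il18, a cytokine that retinoic acid signalling sustains in mouse gut epithelium, stood at 9.79, 9.95 and 9.59 without and at 9.17, 9.08 and 9.14 with antibiotics. Its groups did not overlap (-0.65, SE 0.12, adjusted p = 0.0868). Il18 passed with median centring (-0.80, adjusted p = 0.0371), a higher floor for dim signal (adjusted p = 0.046) and array weights (adjusted p = 0.00689). It did not pass in 10 other settings. These were the common run (adjusted p = 0.0923), no filter on dim probe sets (0.191), the replicate block (0.249), the deposited scaling (0.253) and each array left out (0.105 to 0.356). Cdx1, an intestinal homeobox gene, differed by 0.33 (SE 0.12, adjusted p = 0.32) and Gprc5a, a receptor first found as a gene induced by retinoic acid, by -0.24 (SE 0.12, adjusted p = 0.455). Without antibiotics replicate 3 the difference of Gprc5a was -0.12, and it was -0.14 within the common run. By these 6 lists, counts of genes past the threshold were 0 in 5 and 2 in the oxidoreductases, and 9 of the 58 genes had an unadjusted p under 0.05, which 12.6% of all genes had.

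**Figure D4:**
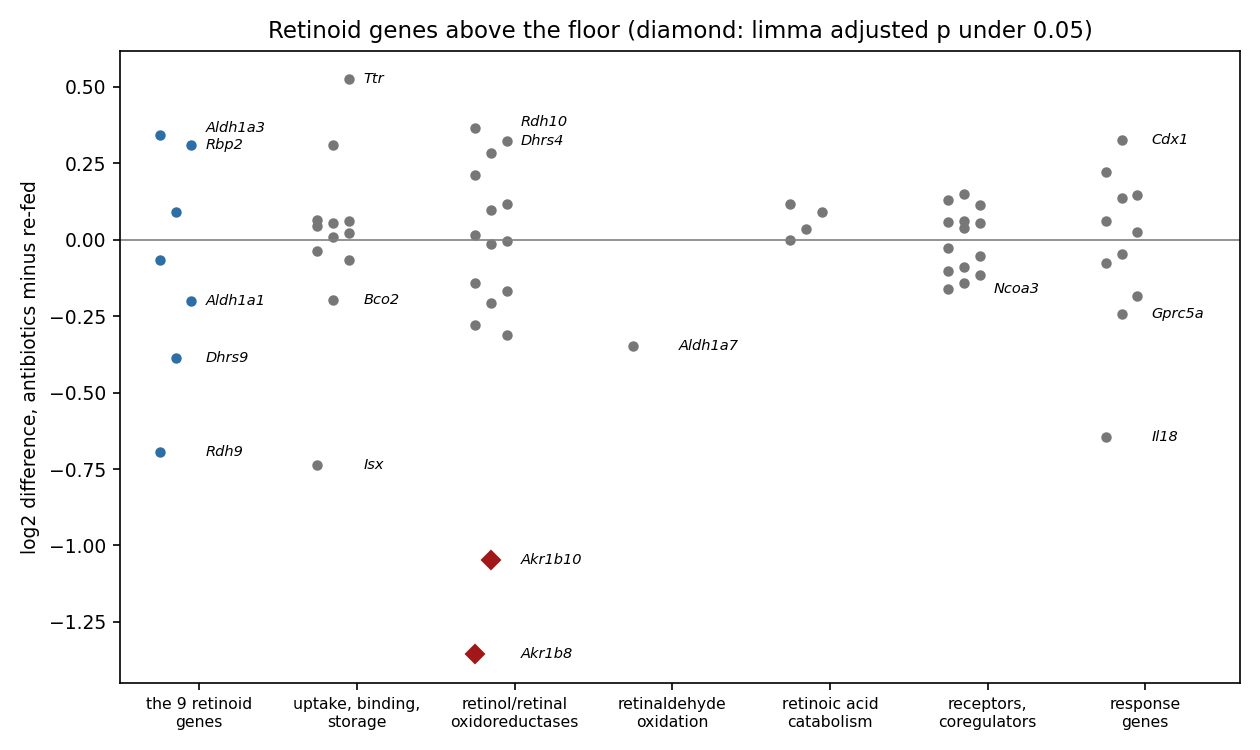
Log2 difference, antibiotics minus re-fed, over 6 arrays for the retinoid genes above the floor, in columns by role, with the 9 listed genes (7 above the floor) in blue on the left. Red diamonds are Akr1b8 (-1.36) and Akr1b10 (-1.05), the 2 genes past an adjusted p under 0.05 in limma's test, and horizontal offsets only spread the points.

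The promoters of the genes were searched for direct repeats of GNTCA, the core of the sites to which RAR and RXR dimers bind, in the 300 bases of the RefSeq table around each start and on both strands. The motif was GNTCA, then 2, 3 or 6 bases of any kind, then GNTCA again. With half-sites counted as 6 bases long, these are spacings of 1, 2 and 5 bases, and they occurred in 1.26%, 1.12% and 0.861% of all 32851 promoters. Promoters were found for 8 of the 9 members and 69 of the other pathway genes. The spacing of 1 was matched in 0 of 12 member promoters and 2 of 91 pathway promoters. The spacing of 2 was matched in 0 and 0, and that of 5 in 1 and 1. All matches found in these genes are shown with 7 bases on each side, the repeat in capitals.
Rarb: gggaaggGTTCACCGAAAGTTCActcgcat
Cyp26a1: ttaaagaTGAACTTTGGGTGAACtaatttg
Isx: caaagagGCTCAGGGTTCActtggcc
Bco1: tgggaacTGACCTTTGACCtaacaca
The stretch of Rarb (GRCm38.p6, chr14:16575506-16575535, minus strand) holds the repeat with a spacing of 5 bases, from 52 to 37 bases before the start. That of Cyp26a1 (chr19:37697769-37697798, plus strand) holds the same spacing in the opposite orientation, from 32 to 17 bases before the start. Isx (chr8:74873115-74873140, plus strand) and Bco1 (chr8:117095802-117095827, plus strand) hold the repeat with a spacing of 1 base. Rarb and Cyp26a1, the genes with the spacing of 5, were both below the floor in both groups. Rdh9, Rdh16, Rdh7, Dhrs3, Dhrs9, Aldh1a1 and Rbp2 had no match, which says only that these letters are not in the windows searched.

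The genes whose levels ran most like Rdh9 over the 6 arrays were sought among 12064 other genes above the floor by Pearson's correlation, as a description of arrays that fall into 2 groups. They were Ptprg (r = 0.996), Erlin1 (0.996), Pafah1b2 (0.995), Fam117b (0.995) and Vps29 (0.992). Their differences were -0.48 for Ptprg, -0.69 for Erlin1, -0.27 for Pafah1b2, -0.24 for Fam117b and -0.26 for Vps29. In each of them, as in Rdh9, re-fed replicate 1 was the lowest re-fed array and all antibiotics arrays lay below it. The search by correlation selects for this order, so it adds nothing to the values of Rdh9.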

How the data were processed

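The authors deposited log2 expression values of 35557 probe sets on 6 arrays, made with RMA, which corrects background, normalises by quantiles and summarises the probes of a set, per the submitters' processing notes. Biotinylated cRNA was prepared from 6 µg of total RNA, per the labels' protocols. The version of RMA and the annotation were not given in the sources used here.

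Array medians differed (5.63 to 6.17), so the deposited values were quantile-normalised again. This used the 23410 probe sets that the platform table pairs with genes (21789 with 1 gene, 1621 with several, 12147 unnamed here). Where a gene had several probe sets of its own, the brightest by mean was taken, and each of the 9 members has 1 such probe set. Sample titles gave the groups and replicate numbers. Pairs of arrays of the common run shared 372 to 435 identical deposited values, and re-fed replicate 1 shared 154 to 198 with them. Antibiotics replicate 3 shared 42 to 67 with the other arrays. It held only 10829 distinct deposited values, against 34568 to 34596 on each other array, so its shared counts cannot be compared directly with theirs.

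The test was limma's (version 3.58.1, R 4.3.3), two-sided and with no block, and p-values were adjusted over 12071 genes by Benjamini-Hochberg with a threshold of 0.05. P-values set each difference against the spread between samples within a group, with each gene's variance drawn towards that of all genes tested. That spread also holds any difference between processing runs. The procedure was tested on simulated data. The rule for named genes took all 9 members, the genes of each pathway list past the threshold and up to 3 with the smallest unadjusted p, a few markers (Epcam, Cdh1, Ptprc, Car1, Slc26a3 and Lgr5), the 5 genes most like Rdh9, and its close paralogs. Rdh10, Bco1, Scarb1, Aldh1a2, Cyp26a1, Krt8, Krt18, Krt19 and the remaining genes of the chromosome 10 run fall outside it and were named after their values were seen. The same holds for those named from the colonocyte, crypt-base and small-intestinal lists. Cdh1 stood at 12.57 ± 0.016 and 12.54 ± 0.072. The lists of pan-epithelial genes (8 tested, 0 past the threshold, median difference -0.053) and of stroma with endothelium (7 of 13 above the floor, 0 past it, median difference 0.15) were read as well. Members and lists were chosen with earlier results of these data known. Genes with no probe set of their own were not analysed here. Precision is limited by the number of arrays, and RMA gives no detection call.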

Additional observations from a re-analysis of the deposited data

How the results depend on the processing

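Rdh9 stayed lower in all 13 alternatives, from -0.887 with the deposited scaling and -0.849 with median centring to -0.648 without re-fed replicate 3. With these scalings the median of all genes was -0.12 and -0.080, and Rdh9 lay 0.77 below each. The median over the members was -0.26 with the deposited scaling, and its range with 1 array left out was -0.142 to 0.0242. Rdh16 and Dhrs3 kept their sign in 11 and 12 of the 13, and the other 6 members in all. The count of genes past the threshold (7) was 45 with the deposited scaling, 62 with median centring, 54 in the common run, 2 with no filter on dim probe sets, 43 with the stricter filter (the 60th percentile), 1169 with array weights and 0 to 11 with 1 array left out, where limma with 0 calls had 1040 genes at an unadjusted p under 0.05. The count of pathway genes past it (2) was 3 with median centring, 3 with the stricter filter, 1 with no filter (Akr1b10 no longer passed), 9 with array weights and 0 to 2 with 1 array left out. The replicate numbers did not pair the samples (correlations of same-numbered arrays 0.021, -0.034 and -0.23, with 0 of 6 arrays correlating best with its own number). With the replicate number as a block 7 genes and 1 pathway gene passed, Akr1b10 dropping out (adjusted p = 0.0539). Of the pathway genes named by the rule, array weights brought Il18, Isx, Dhrs4, Aldh1a7 and Cdx1 past the threshold. Pathway genes outside the rule were not followed by setting. Neither Cyp3a13 nor Nrip1 passed in any setting, and both changed sign. Cyp3a13 (0.0337) turned to -0.151 with the deposited scaling, -0.113 with median centring, -0.0962 with array weights, and ran from -0.131 to 0.159 with 1 array left out, and Nrip1 (0.129) to -0.0629 and -0.0246 with these 2 scalings. The causes of these changes were not tested. No gene set test was run.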
